A study of Mus musculus with 10 samples.

Results

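The hair follicle bulge stem cell genes examined here are 8 markers and regulators taken by gene symbol: the transcription factors Lhx2, Sox9 and Nfatc1, the surface proteins Lgr5, Cd34 and Gas1, and the keratins Krt15 and Krt24. All 8 were present in both deposited gene tables, out of 19090 genes in the pair of tables together, and all 8 passed the minimum mean level used for testing. The question set by the design was how each gene's RNA level differed when a Polycomb complex was removed from mouse epidermis, in Eed KO cells against Eed controls and in Ring1a/b 2KO cells against Ring1 controls.

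The bulge is the part of the hair follicle where its resting stem cells reside, and these cells regenerate the follicle at each hair cycle. Polycomb repressive complex 2, of which Eed is a core subunit, and Polycomb repressive complex 1, whose ubiquitin ligase subunits are Ring1 (Ring1a) and Rnf2 (Ring1b), silence developmental genes through marks on histones. The cells sequenced were not bulge cells by the sort. They were sorted from back skin as EpCAM+, Sca1+ and α6-integrin high, a surface profile taken for progenitors of the epidermis between follicles.

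The 10 libraries formed 4 groups of mice at postnatal day 71: 3 Eed KO (genotype Eed -/-), 3 Eed control, 2 Ring1a/b 2KO (Ring1a-/- Ring1b-/-) and 2 Ring1 control libraries. The protocol given for every sample, controls included, was 4OH-tamoxifen at 20 mg/ml on shaved back skin, 100 µl daily for 4 days from postnatal day 50. The sources used here give neither the Cre driver nor the alleles that the controls carried. RNA was amplified from 10 ng per sample and read as 150-nucleotide pairs. Recovered reads numbered 31699979 to 40701183 in the Eed libraries, 19814853 and 6237389 in the Ring1a/b 2KO and 25158144 and 7162907 in the Ring1 controls, so library 2 was the shallower in both Ring1 groups. Mitochondrial genes took 8.16% and 12.7% of reads in the Ring1a/b 2KO, against 6.51% and 7.28% in the Ring1 controls. Whole-gene levels of the deleted genes did not separate the genotypes: Eed averaged 1298 in Eed KO against 1623 in Eed control libraries, and in the Ring1a/b 2KO against Ring1 controls Ring1 averaged 110 against 139 and Rnf2 624 against 672. Whether the counted part of each gene lies outside the deletion is not given. The basal keratinocyte keratins Krt5 and Krt14 were abundant in every library, with group means of 75199 to 589158.

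The libraries also differed in the reads of 4 Y-linked genes, Ddx3y, Eif2s3y, Kdm5d and Uty, which mark cells from male mice. Their summed normalised read count was 152 in Eed KO 1, 8958 in Eed KO 2 and 610 in Eed KO 3, against 10100, 7231 and 557 in Eed control 1, 2 and 3. It was 126 and 219 in the Ring1a/b 2KO libraries, against 2378 and 1318 in the Ring1 controls. The Eed groups were therefore mixed, with low sums in Eed KO 1, Eed KO 3 and Eed control 3, whereas both Ring1a/b 2KO libraries were low and both Ring1 controls high. The labels do not give the sex of the mice. In the Ring1 comparison the genotype and the Y-linked level cannot be told apart, and this applies to every Ring1a/b difference below.

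Promoters rich in CpG dinucleotides are where mammalian Polycomb complexes are known to gather, and the members differ in this respect. RefSeq promoter windows (GRCm38.p6, 250 bases before to 50 after a transcription start) were matched for 4 of the 8 members: Lhx2 with a pair of start sites, Cd34, Gas1 and Krt24. The 250 bases before the start are shown for the 3 of these whose levels were called different in the deposited Ring1 table, written 5′ to 3′ on the gene's strand with CG dinucleotides in capitals. Lhx2 start 1 is at chr2:38339031-38339280 (+), Lhx2 start 2 at chr2:38351058-38351307 (+), Cd34 at chr1:194938571-194938820 (+) and Krt24 at chr11:99285263-99285512 (-).
Lhx2 start 1: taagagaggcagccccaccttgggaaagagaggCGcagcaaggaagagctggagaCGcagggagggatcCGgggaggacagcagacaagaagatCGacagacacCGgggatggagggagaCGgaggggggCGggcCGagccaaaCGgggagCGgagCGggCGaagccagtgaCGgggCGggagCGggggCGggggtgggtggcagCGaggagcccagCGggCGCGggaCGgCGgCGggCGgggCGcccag
Lhx2 start 2: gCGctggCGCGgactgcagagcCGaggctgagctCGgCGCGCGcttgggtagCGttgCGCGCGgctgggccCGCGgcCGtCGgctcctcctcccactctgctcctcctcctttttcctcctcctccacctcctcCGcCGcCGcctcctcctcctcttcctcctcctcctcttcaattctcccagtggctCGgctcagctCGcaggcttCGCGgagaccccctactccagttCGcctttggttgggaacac
Cd34: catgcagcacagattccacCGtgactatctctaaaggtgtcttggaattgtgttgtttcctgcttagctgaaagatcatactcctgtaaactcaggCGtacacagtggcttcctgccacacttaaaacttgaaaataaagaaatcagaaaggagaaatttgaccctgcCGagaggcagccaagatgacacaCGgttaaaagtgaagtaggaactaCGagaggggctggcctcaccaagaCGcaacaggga
Krt24: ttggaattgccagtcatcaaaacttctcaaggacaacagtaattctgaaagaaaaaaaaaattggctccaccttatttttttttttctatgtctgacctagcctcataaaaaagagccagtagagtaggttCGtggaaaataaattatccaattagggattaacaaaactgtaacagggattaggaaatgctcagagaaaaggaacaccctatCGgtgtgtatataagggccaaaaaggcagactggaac
Over the full 300-base windows, Lhx2 held 34 CpG dinucleotides at start 1 and 29 at start 2, counts reached by 7.73% and 12.9% of the 32851 RefSeq windows. Gas1 held 17 (reached by 31.4% of windows), Cd34 7 (52.1%) and Krt24 3 (76.7%), beside a median of 7 over all windows. Among the 3 genes whose sequences are shown, CpG counts thus stood above the median for Lhx2, at it for Cd34 and below it for Krt24. Whether CpG content bears on the knockout differences was not tested. The 5 windows were searched on both strands for 5 short motifs as exact strings. Variants, such as the tatataag in the Krt24 sequence, were not counted. None held TATAAA, present in 13.6% of all windows. None held TAATTA, present in 5.29%, or AACAAT, present in 10.7%, or CTTTGA, present in 16.0%. All 5 held GGAAA, as do 61.3% of all windows.

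**Figure D1:**
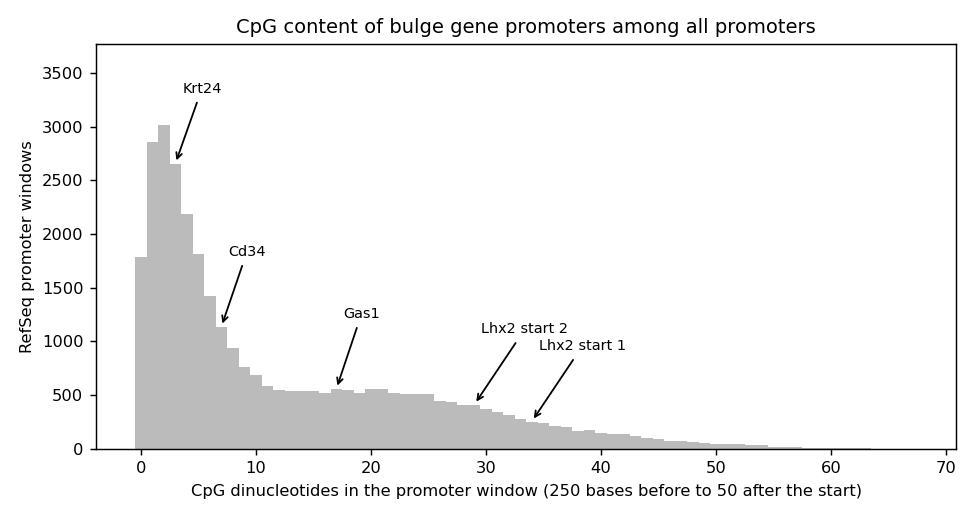
Distribution of CpG dinucleotides per RefSeq promoter window of 300 bases (x axis, CpG count; y axis, number of windows), with arrows at the windows of 4 bulge genes. The Lhx2 windows lie far to the right of the median of 7, whereas Krt24, with 3, and Cd34, with 7, lie in the main body.

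Between the members, levels spanned several orders of magnitude. Per kilobase of exon, the mean normalised read count in Eed KO libraries was 79010 for Krt15, 1120 for Gas1, 1071 for Sox9, 516 for Nfatc1, 218 for Krt24, 111 for Lhx2, 22.6 for Cd34 and 22.6 for Lgr5. The Eed controls had the same order, with 98620 for Krt15 and 10.9 for Lgr5. The ranges of Gas1 and Sox9 overlapped in all 4 groups, and those of Cd34 and Lgr5 in all but the Ring1 controls, so the order within these pairs did not exceed the spread. Lhx2 overlapped its neighbours Krt24 and Cd34 in the Eed KO, and Cd34 and Lgr5 in the Eed controls. Nfatc1 overlapped Gas1 and Sox9 in the Eed controls. In the Ring1a/b 2KO, Krt24 (201 per kilobase) stood above Nfatc1 (139), although their ranges overlapped, whereas in the Ring1 controls Krt24 (41.7) stood below Nfatc1 (152) with no overlap.

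Of the transcription factors, Lhx2 showed the largest difference in both knockouts, Sox9 a smaller one and Nfatc1 almost none. Lhx2, a LIM homeodomain factor that maintains follicle stem cells (chr2:38339281-38369733, +), had normalised read counts of 994, 160 and 312 in the Eed KO libraries 1, 2 and 3, against 68.2, 115 and 269 in Eed controls 1, 2 and 3. The groups overlapped, since Eed control 3 lay above Eed KO 2, and Eed KO 1 stood far above the rest. The log2 fold change was 1.51 (SE 0.68), with a limma adjusted p of 0.989 over all 16122 genes.

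Lhx2 levels were 264 and 488 in the Ring1a/b 2KO, against 117 and 116 in the Ring1 controls. Both knockout libraries lay above both controls, and the controls were nearly equal. The log2 fold change was 1.61 (SE 0.35), with a limma adjusted p of 0.207, and the authors' deposited table gives 1.68 with an adjusted p of 0.00804.

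Sox9, an HMG-box factor needed to specify the follicle stem cells (chr11:112782224-112787760, +), had 5976, 3160 and 4150 in Eed KO against 2275, 3897 and 2244 in Eed control libraries. Eed control 2 lay above Eed KO 2, and the log2 fold change was 0.66 (SE 0.29, adjusted p by limma 0.989). In the Ring1a/b 2KO Sox9 had 1931 and 929, against 1044 and 919 in Ring1 controls (log2 fold change 0.45, SE 0.34, adjusted p by limma 0.696). The Ring1a/b 2KO value rests on library 1, and without it the log2 fold change was -0.077.

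Nfatc1, a calcineurin-regulated factor that keeps bulge cells quiescent (chr18:80606205-80713071, -), had 2711, 3718 and 5140 in Eed KO against 2929, 4993 and 4579 in Eed control libraries. It had 1187 and 888 in the Ring1a/b 2KO against 1251 and 1019 in Ring1 controls. Both pairs of groups overlapped, and the log2 fold changes were -0.12 (95% interval -0.75 to 0.51) and -0.14 (-0.65 to 0.38).

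**Figure D2:**
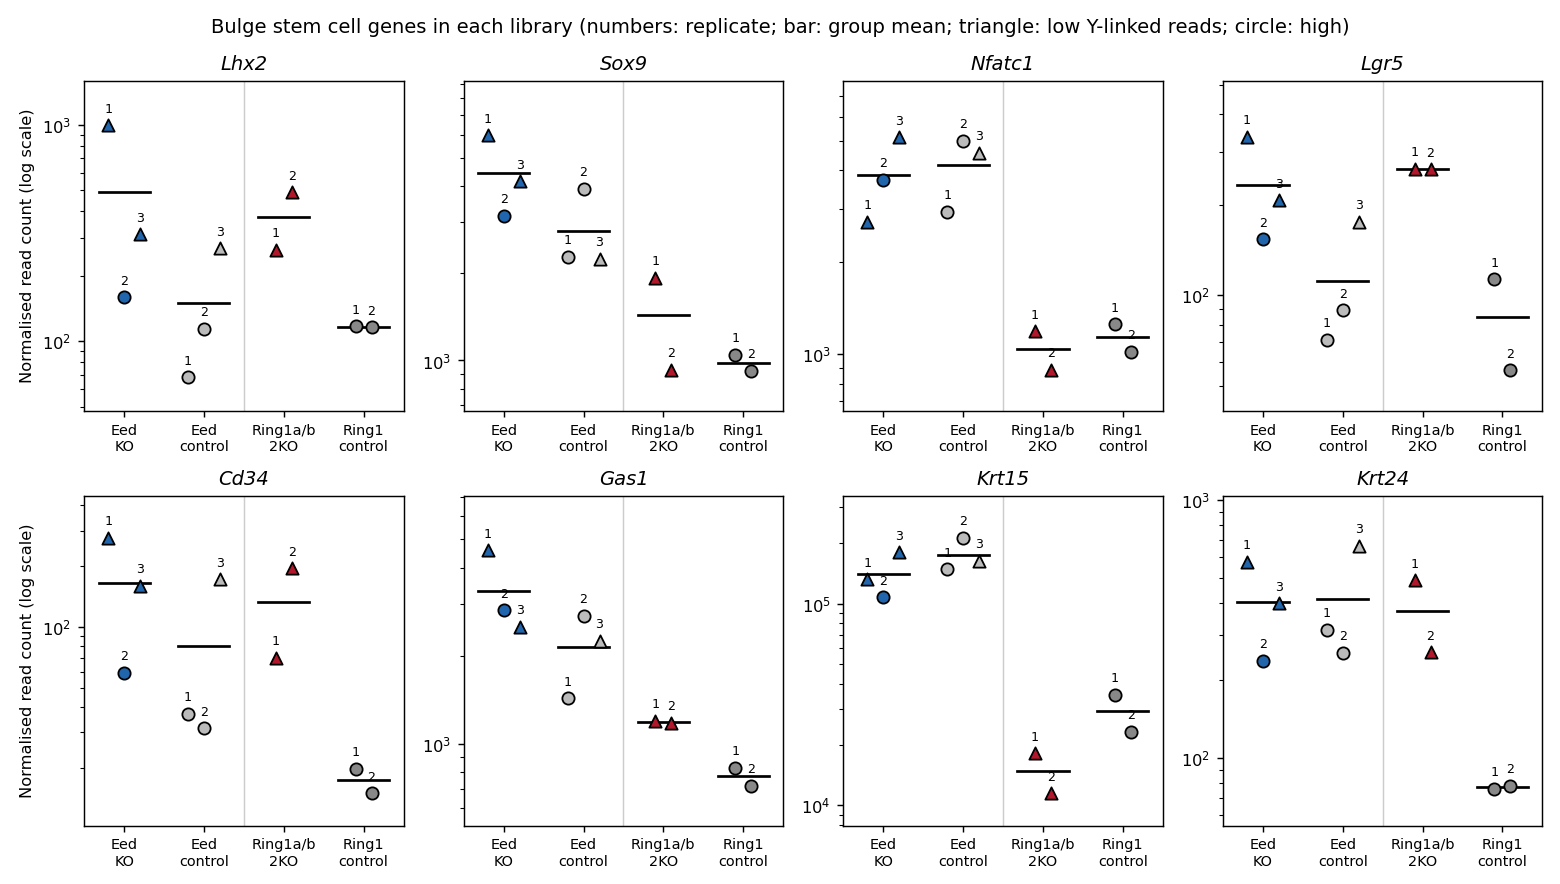
Normalised read count (y axis, log scale) of each bulge gene in each library, by group; numbers give the replicate, bars the group mean, triangles libraries with a low sum of Y-linked reads and circles those with a high sum. For Cd34, Lhx2, Lgr5 and Krt24 the 3 triangles of the Eed libraries all lie above the 3 circles, and the Ring1 groups do not overlap.

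Among the surface proteins, Cd34 and Lgr5 had the larger differences and Gas1 a smaller one, all positive in both knockouts. Lgr5, an R-spondin receptor of cycling follicle stem cells (chr10:115450311-115587780, -), had 336, 153 and 207 in Eed KO against 71.1, 89.3 and 175 in Eed control libraries. Only Eed KO 2 lay below a control, Eed control 3, and the log2 fold change was 1.08 (SE 0.44, adjusted p by limma 0.989). Its values in the Ring1a/b 2KO were 263 and 262, against 113 and 56.5 in the Ring1 controls, with a log2 fold change of 1.70 (SE 0.40, adjusted p by limma 0.207). The authors' deposited table gives 1.60 with an adjusted p of 0.0322 for this gene.

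Cd34, a surface sialomucin used to sort mouse bulge cells (chr1:194938819-194961279, +), had 276, 59.1 and 160 in Eed KO against 37.0, 31.5 and 172 in Eed control libraries. Eed control 3 lay above Eed KO 2 and Eed KO 3, and the log2 fold change was 1.22 (SE 0.74, adjusted p by limma 0.989). The Ring1a/b 2KO libraries had 70.5 and 195, against 19.8 and 15.0 in Ring1 controls, values that stand on 114 and 109 reads against 38 and 9 reads. The log2 fold change was 2.70 (SE 0.61, adjusted p by limma 0.207), and the authors' deposited table gives 2.89 with an adjusted p of 0.00357. This was the largest fold change among the members, and 1.32% of the 15310 genes tested by limma had a higher one.

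Gas1, a growth-arrest protein and Hedgehog co-receptor (chr13:60174405-60177365, -), had 4586, 2853 and 2510 in Eed KO against 1428, 2734 and 2244 in Eed control libraries. Eed KO 3 lay below Eed control 2, and the log2 fold change was 0.64 (SE 0.29, adjusted p by limma 0.989). In the Ring1a/b 2KO Gas1 had 1196 and 1176, against 825 and 718 in Ring1 controls, with no overlap (log2 fold change 0.62, SE 0.20, adjusted p by limma 0.364). Of the Gas1 31-base sequences, 18.2% are shared with the overlapping antisense gene Gm48488. Strand marking of the libraries is not given, so reads lying wholly in the shared part cannot be set apart. For Cd34 the share with its antisense neighbour Gm16897 and other genes was 4.97%.

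The keratins went in opposite directions in the Ring1a/b 2KO. Krt15, a type I keratin of the bulge that basal keratinocytes also make (chr11:100131758-100135928, -), had 18078 and 11459 in the Ring1a/b 2KO, against 35361 and 23217 in Ring1 controls, with no overlap. The log2 fold change was -0.99 (SE 0.30, adjusted p by limma 0.349), and the authors' deposited table gives an adjusted p of 0.114. In the Eed table Krt15 had 132014, 107479 and 179266 in Eed KO against 147695, 211491 and 163557 in Eed control libraries, which overlapped (log2 fold change -0.34, SE 0.30).

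Krt24, a type I keratin found in the bulge (chr11:99279959-99285262, -), had 488 and 256 in the Ring1a/b 2KO, against 76.1 and 78.1 in Ring1 controls. Its mean was 4.83-fold that of the controls, with a log2 fold change of 2.18 (SE 0.38, adjusted p by limma 0.131). The authors' deposited table gives 2.28 with an adjusted p of 9.07e-05, the smallest among the 8 genes. In the Eed table Krt24 had 574, 239 and 397 in Eed KO against 314, 256 and 665 in Eed control libraries, with a log2 fold change of 0.0090 (95% interval -0.96 to 0.97) whose sign changed with the scaling.

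Over the 8 genes in the Eed comparison, limma called 0 at an adjusted p under 0.05, beside 0% of all genes tested, and 2, Sox9 and Lgr5, had an unadjusted p under 0.05, beside 4.73% of all genes. The authors' deposited table also called 0 of the 8, where it called 0.761% of its tested genes. Log2 fold changes were positive for 6 of 8 (51.2% of all genes), with a median of 0.65 beside 0.00798 over all genes. In no member did the Eed groups separate, where 5.06% of all genes separated upwards and 4.15% downwards. An exact permutation test of 3 against 3 libraries cannot give a two-sided p below 0.1.

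Over the 8 genes in the Ring1 comparison, limma called 0, beside 0.0392% of all genes tested (6 genes), and edgeR on the recovered reads also called 0 (0%). Unadjusted p-values were under 0.05 for 6 of 8 by limma (10.4% of all genes) and 6 of 8 by edgeR (1474 of all 15310 genes). The authors' deposited table called 4 of 8 higher, Cd34, Lhx2, Lgr5 and Krt24, where it called 1.18% of its tested genes higher. Log2 fold changes were positive for 6 of 8 (50% of all genes). The groups did not overlap in 5 members that were higher and 1 that was lower, where 21.4% of all genes separated upwards and 21.5% downwards. The median log2 fold change was 1.12, beside -0.000622 over all genes. The calls of the deposited table depended on single libraries: DESeq2, which gave the same 4 calls on all libraries, called 0 members without Ring1 control 1 and only Krt24 without Ring1 control 2 or without Ring1a/b 2KO 2. Without Ring1a/b 2KO 1 the DESeq2 calls rose over all genes but not in the members. Member calls of that run are not named here. Against the mean of the Ring1 controls, Ring1a/b 2KO 2 stood at log2 differences of 3.43 for Cd34, 2.05 for Lhx2 and -1.32 for Krt15. Those of Ring1a/b 2KO 1 were 1.97, 1.17 and -0.66. Other members differed in this: Krt24 stood at 1.72 in library 2 and 2.65 in library 1, and Sox9 at -0.077 and 0.98. The libraries were close for Lgr5 (1.70 and 1.71) and Gas1 (0.61 and 0.64), while Nfatc1 had -0.35 and 0.072.

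**Figure D3:**
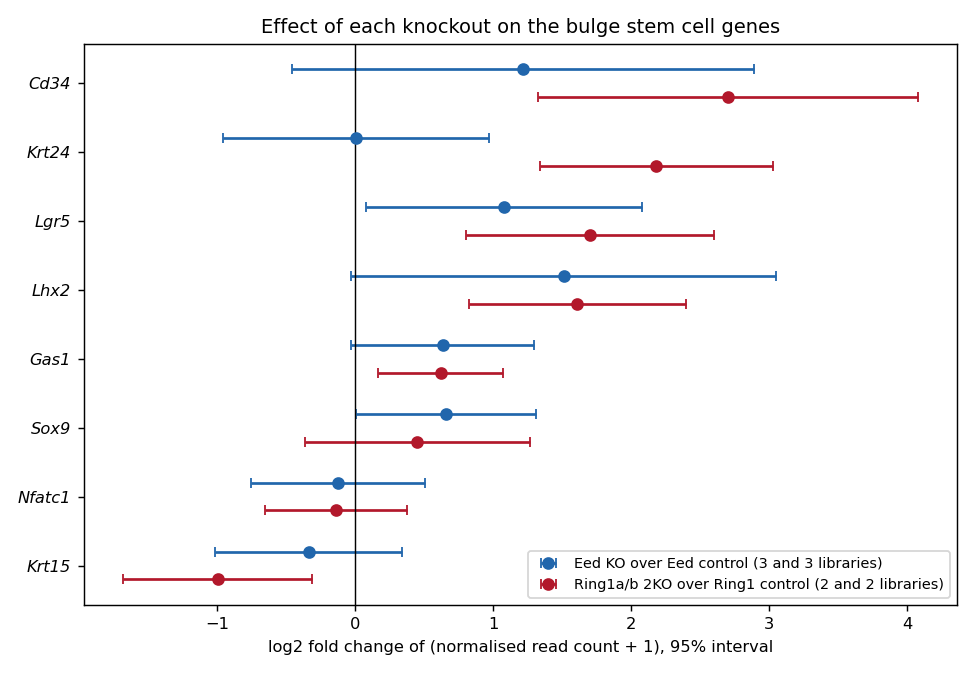
Log2 fold change of each bulge gene (x axis, log2 of normalised read count + 1) in Eed KO over Eed control (blue) and Ring1a/b 2KO over Ring1 control (red), with 95% limma intervals. Krt24 is the gene whose intervals stand apart, at 0.0090 in the Eed and 2.18 in the Ring1a/b comparison; intervals cover the spread between libraries and not the Y-linked difference.

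The difference between the Eed and the Ring1a/b effect was tested itself for each gene. It was -2.17 for Krt24 (95% interval -3.61 to -0.74), with an unadjusted limma p of 0.00641 and an adjusted p of 1 over 15096 genes. For the other members the unadjusted p was 0.207 or more, with intervals of -3.97 to 1.00 for Cd34, -2.36 to 2.16 for Lhx2 and -2.08 to 0.84 for Lgr5, so these libraries leave room for a large difference in either direction. For Gas1 and Nfatc1 the interval was -0.90 to 0.93. Limma called 0 of 8, as for all genes (0%), and 1 of 8 had an unadjusted p under 0.05 (1.89% of all genes).

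Across the Eed libraries, Cd34, Lhx2, Lgr5 and Krt24 separated by the Y-linked level, whereas their genotype groups overlapped. This comparison was made after the values were seen. For these 4 members every library with a low Y-linked sum, 2 knockouts and 1 control, lay above every library with a high sum, 1 knockout and 2 controls, where 5.52% of all genes did so. For Sox9, Nfatc1, Gas1 and Krt15 they overlapped. With the Y-linked level as a term in the limma fit, the low minus high difference was 2.06 for Cd34 (SE 0.44, adjusted p = 1), 1.70 for Lhx2 (SE 0.49, adjusted p = 1), 1.11 for Krt24 (SE 0.29, adjusted p = 1) and 0.95 for Lgr5 (SE 0.39, adjusted p = 1). Limma called 0.0248% of all genes for this term, and 4 of the 8 members had an unadjusted p under 0.05, beside 3.68% of all genes.

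Fitted beside that term, the Eed KO effect was 0.53 for Cd34 (SE 0.44), 0.95 for Lhx2 (SE 0.49), 0.76 for Lgr5 (SE 0.39) and -0.36 for Krt24 (SE 0.29), and 0 of 8 members had an unadjusted limma p under 0.05 (3.52% of all genes) or an adjusted one (0%). For Sox9 and Gas1 it was 0.62 (SE 0.32) and 0.56 (SE 0.32), little moved. Within the low libraries Lhx2 was 1.05 higher on the log2 scale in the knockouts, and within the high libraries 0.85 higher. For Lgr5 these differences were 0.59 and 0.94, for Cd34 0.29 and 0.78, and for Krt24 -0.48 and -0.25. Sox9 was uneven, at 1.15 and 0.086, whereas Gas1 had 0.60 and 0.53. Each difference came from 1 library on one side and 2 on the other.

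In the Ring1 table alone no such term could be fitted, because the Y-linked level follows the genotype there. In 1 limma fit over all 10 libraries, which assumes the Y-linked difference to be the same in both tables, the Ring1a/b 2KO effect was 0.65 for Cd34 (SE 0.75), -0.084 for Lhx2 (SE 0.69), 0.75 for Lgr5 (SE 0.57), 1.07 for Krt24 (SE 0.48) and -1.20 for Krt15 (SE 0.53), and all 8 adjusted p-values were 1. The unadjusted limma p was 0.0476 for Krt24 and 0.0454 for Krt15, so 2 of 8 were under 0.05, beside 3.71% of all genes. The part of the Y-linked difference in the Ring1 values was not tested beyond this fit.

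Cd34, Lhx2 and Lgr5 varied together from library to library. With each library set against its own controls' mean, Pearson's r over the 10 libraries was 0.915 for Cd34 and Lgr5, 0.888 for Cd34 and Lhx2 and 0.887 for Lhx2 and Lgr5, while Nfatc1 had r of -0.264 to -0.114 with these 3. Other pairs came close: r was 0.841 for Lhx2 and Gas1, 0.803 for Lgr5 and Gas1, 0.787 for Cd34 and Krt24 and 0.765 for Sox9 and Gas1. These are descriptions, since the libraries share genotype, Y-linked level and depth. By the same measure over 11290 genes, the pair most like Lhx2 was Tfrc (0.987) and Mcm7 (0.977), most like Cd34 Slc25a37 (0.979) and Agbl5 (0.975), most like Lgr5 Enah (0.957) and Ptpru (0.954), and most like Krt24 Ubxn8 (0.943) and Defb1 (0.934). For Krt15 it was Spry1 (0.978) and Map3k11 (0.952), for Gas1 Msto1 (0.969) and Hoxd8 (0.965), for Sox9 Pinx1 (0.961) and Nudt4 (0.935), and for Nfatc1 Spg20 (0.92) and Stxbp5 (0.894).

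Of 18 other bulge stem cell genes, limma and edgeR each called 0 in either comparison. An unadjusted limma p under 0.05 was found for 6 in the Eed KO (4.73% of all genes) and for 6 in the Ring1a/b 2KO (10.4% of all genes). Log2 fold changes were positive for 14 in the Eed KO (median 0.54), beside 51.2% of all genes, and for 13 in the Ring1a/b 2KO (median 0.59), beside 50%. The Eed groups separated upwards for 7 and downwards for 0, where 5.06% of all genes separated upwards and 4.15% downwards. The Ring1 groups separated upwards for 8 and downwards for 2, where 21.4% of all genes separated upwards and 21.5% downwards. The authors' deposited table called 0 of the 18 in the Eed KO and 3 higher in the Ring1a/b 2KO, where it called 1.18% of its tested genes higher.

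Those 3 were Tbx1, Runx1 and Tnc. Tbx1, a T-box factor of bulge cells, had 99.5 and 100 in the Ring1a/b 2KO against 14.1 and 23.3 in Ring1 controls, with an adjusted p of 0.00624 in the authors' deposited table. Runx1, a runt-domain factor of follicle stem cell activation, had 2699 and 1336 in the Ring1a/b 2KO against 750 and 836 in Ring1 controls, and Tnc, a matrix glycoprotein, had 1145 and 1804 against 352 and 701; the authors' deposited table gives adjusted p-values of 0.0202 and 0.0177. In the Eed table Tbx1 had 273, 45.6 and 66.3 in Eed KO against 20.4, 11.2 and 54.6 in Eed control libraries, and its 3 low Y-linked libraries again lay above the 3 high ones. Runx1 (6843, 2765 and 2892 in Eed KO against 1558, 2393 and 1872 in Eed control) and Tcf7l1 (305, 138 and 200 against 71.1, 100 and 72.8), a repressor of Wnt targets, separated by genotype without calls. Tnc did so too, at 6827, 1795 and 932.5 in Eed KO against 223, 417 and 772 in Eed control libraries. These genes are among the 7 of the list that separated upwards there.

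**Figure D4:**
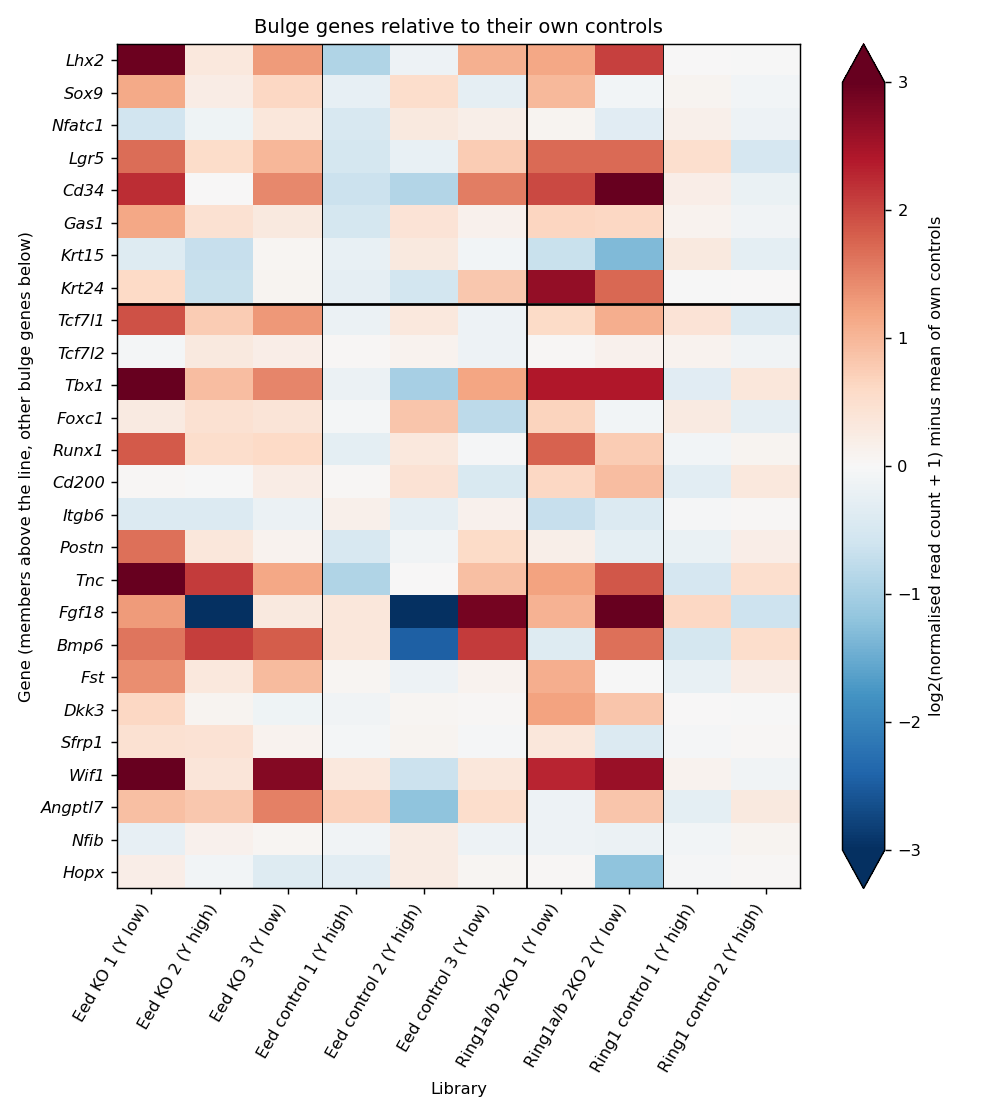
Log2(normalised read count + 1) minus the mean of the table's own controls (colour, limited to -3 to 3) for the 8 members and 18 other bulge genes (rows) in each library (columns, marked by Y-linked level). Cd34, Lhx2, Lgr5 and Krt24 are above zero in Eed control 3 as well as in Eed KO 1 and Eed KO 3.

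Neighbouring compartments were described in the same way. Of 7 upper follicle and junctional zone genes, the authors' deposited table called 1 higher in the Ring1a/b 2KO, the Hedgehog effector Gli1, at 96.4 and 100 against 15.6 and 23.3 in Ring1 controls (adjusted p = 0.00868), and 0 in the Eed KO. In the Eed table Gli1 had 312, 44.6 and 48.9 in Eed KO against 14.6, 5.07 and 50.6 in Eed control libraries. Its 3 low Y-linked libraries lay above the 3 high ones. Of 9 hair germ genes the authors' deposited table called 0 in both comparisons, with medians of -0.090 in the Eed KO and -0.12 in the Ring1a/b 2KO. Of 13 basal keratinocyte genes, 11 had negative log2 fold changes in the Ring1a/b 2KO (median -0.47), where 50% of all genes had positive ones, and 9 separated downwards, beside 21.5% of all genes. Of the 3 sort markers, Itga6 (α6-integrin) was among these, at 9738 and 9343 in the Ring1a/b 2KO against 17301 and 13462 in Ring1 controls. The other two overlapped: Ly6a (Sca1) had 2851 and 4267 in the Ring1a/b 2KO against 3001 and 2474 in Ring1 controls, and Epcam had 1845 and 938 against 1767 and 1203. In the Eed KO 8 of 13 were negative (median -0.084).

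Cd34 is also made by dermal fibroblasts, endothelium and mast cells, so markers of these types were summed in each library. How many such cells passed the EpCAM+ and α6-integrin high gates was not tested. The 9 fibroblast markers found in the tables summed to 5061 to 8938 in Eed KO against 4163 to 6362 in Eed controls, and to 1264 to 1969 in the Ring1a/b 2KO against 1178 to 1407 in Ring1 controls. Eed KO 1 and Eed control 3, the libraries with the most Cd34 in their groups, had the highest fibroblast sums of theirs. In the Ring1a/b 2KO it was the other way round: library 2 had more Cd34 but the lower fibroblast sum, 1264 against 1969 in library 1. Thy1, which lymphocytes also carry, made up most of the sums in the Eed libraries and the Ring1 controls, and stood at 794 to 980 in the Ring1a/b 2KO libraries. Without a limma call, 6 of the 7 fibroblast markers tested had positive log2 fold changes in the Eed KO (median 0.54) and 5 of 6 in the Ring1a/b 2KO (median 1.01). The matrix proteoglycan gene Dcn had 129 to 863 in Eed KO against 19.5 to 74.8 in Eed control libraries, and 48.4 to 691 in the Ring1a/b 2KO against 35.4 to 56.5 in Ring1 controls. The authors' deposited table called it higher in the Eed KO (adjusted p = 0.000238). Fbln1, which encodes a matrix protein, had 201 to 1806 in Eed KO against 114 to 292 in Eed control libraries, and 202 to 312 in the Ring1a/b 2KO against 56.8 to 69.8 in Ring1 controls. The authors' deposited table called it higher in the Ring1a/b 2KO (adjusted p = 0.000859). The fibroblast receptor gene Pdgfra was at 11.4 to 24.0 in Eed KO against 4.06 to 14.2 in Eed control libraries, and at 32.8 to 44.8 in the Ring1a/b 2KO against 23.3 to 30.2 in Ring1 controls. The collagen gene Col1a1 was at 28.0 to 78.9 in Eed KO against 19.3 to 70.8 in Eed control libraries, and at 48.4 to 51.9 in the Ring1a/b 2KO against 11.5 to 24.9 in Ring1 controls. Of the 9 fibroblast markers, 4 separated upwards and 1 downwards in the Ring1a/b 2KO, where 21.4% and 21.5% of all genes did. Dpt and Lum were at 13.1 or less in all 10 libraries. Endothelial markers summed to 314 to 592 in Eed KO against 314 to 659 in Eed controls and to 472 to 588 in the Ring1a/b 2KO against 515 to 565 in Ring1 controls, with Cdh5 at 0 in 6 of the 10 libraries. Of the endothelial markers tested, 3 of 7 had positive log2 fold changes in the Eed KO (median -0.37) and 3 of 5 in the Ring1a/b 2KO (median 0.83). In the Ring1a/b 2KO 4 of the 8 endothelial markers found separated upwards and 1 downwards. Only 1 of 5 mast cell markers, Ms4a2, was in the tables, at 11.7 or less. Their part in the Cd34 values was not tested, and in sorted bulk cells fewer cells of a type and less RNA per cell cannot be told apart.

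The remaining lists cover other cells of skin, and proliferation, and limma called 0 of their genes in either comparison. How many such cells passed the EpCAM+, Sca1+ and α6-integrin high gates was not tested. Merkel cell markers stood apart: the 4 found summed to 55.2 to 282 in Eed KO against 11.2 to 15.2 in Eed control libraries, and to 138 to 172 in the Ring1a/b 2KO against 8.33 to 18.3 in Ring1 controls. The LIM homeodomain gene Isl1 led this, and the authors' deposited table called it higher in the Eed KO (adjusted p = 2.59e-05) and in the Ring1a/b 2KO (adjusted p = 0.000672), with Krt18 higher in the Ring1a/b 2KO (adjusted p = 0.00592). The late Merkel keratin Krt20 was at 9.97 or less in every library, and Atoh1 was not found in the tables. The authors' deposited table also called the pigment gene Mlana higher in the Eed KO (adjusted p = 0.00168) and Tyrp1 higher in the Ring1a/b 2KO (adjusted p = 3.48e-05), out of 7 melanocyte markers. Both were listed at 0 in all controls of the table concerned. Of the 6 melanocyte markers tested by limma, 3 had positive log2 fold changes in the Eed KO (median -0.022) and 5 in the Ring1a/b 2KO (median 1.38). Melanocyte sums overlapped in the Eed table, at 556 to 964 in Eed KO against 709 to 785 in Eed controls. Among suprabasal keratinocyte genes the authors' deposited table called the keratin Krt1 higher in the Ring1a/b 2KO (adjusted p = 0.00247) and the cornified envelope gene Lor lower (adjusted p = 0.00592). Among root sheath and hair shaft genes it called Krt27 higher in the Eed KO (adjusted p = 0.0451). It called 0 genes of the Langerhans and myeloid, T cell, sebaceous gland and proliferation lists. All 7 proliferation genes had positive log2 fold changes in both knockouts (median 0.44 in the Eed KO and 0.56 in the Ring1a/b 2KO). Over all genes 51.2% and 50% were positive. The proliferation sums overlapped, and Eed KO 3, at 41460, lay below all Eed controls (50320 to 56630). In the Ring1a/b 2KO they were 24910 to 32070 against 21210 to 26420 in Ring1 controls. The part of these lists in the values of the bulge genes was not tested.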

How the data were processed

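RNA from sorted epidermal cells of 10 libraries was analysed from 2 tables, for Eed and for Ring1, which the authors normalised separately. Levels were therefore compared within a table. The submitters' processing notes name kallisto 0.42.5, DESeq2 3.11 and the mm10 build. The sources used here give no other settings and no strand marking. The deposited per-library values are a normalised signal, gene counts divided by a size factor, and are called normalised read counts. In every library 100% of values were whole multiples of the value of 1 read (tolerance 1e-06), so reads were recovered. The log2 fold changes, the p-values and an unused score (the Wald statistic) in the tables are the authors' deposited values.

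limma 3.58.1 (trend, robust; R 4.3.3) was fitted to log2(value + 1) of genes averaging 5 or more in a table, with Benjamini-Hochberg adjustment over all genes tested and calls at an adjusted p under 0.05. Fold changes are on this scale, which understates changes of low genes. The difference of the knockout effects was a contrast in 1 fit over all 10 libraries. The design gave limma for normalised values, and edgeR 4.0.16 (quasi-likelihood) and DESeq2 1.42.0 on the recovered reads were alternatives. The code was tested on simulated data. Nothing in the labels says that libraries came from separate mice, so p-values measure the spread between these samples, which may be technical. A library left alone in its group was assumed to vary like the others. Libraries were amplified and carry no molecular identifiers, so read totals give counting precision only.

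The members and the 16 gene lists were chosen with earlier results of these data known. Named were all 8 members, and from other lists the genes called in either comparison or, failing that, up to 3 a list with the highest means; for each member also the 2 genes of most similar pattern among genes averaging 50 or more in each table. Genes outside this rule (Tcf7l1, Thy1, Krt20, Pdgfra, Col1a1, Dpt, Lum, Cdh5, Ms4a2) were named after their values were seen. The Y-linked level (low where the 4 genes summed to under 1000), leave-one-out runs of DESeq2 and edgeR with the replicate block were also chosen after seeing the data. Gene positions and exon lengths are from GENCODE M21 (mm10), promoters from RefSeq (GRCm38.p6), read with Python 3.11.15.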

Additional observations from a re-analysis of the deposited data

How the results depend on the processing

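In the Eed KO, 0 of the 8 members were called under all alternatives run. The number of genes called was 0 by limma, 127 by the authors' deposited values and by DESeq2, 10 in 1 fit over all 10 libraries, and 2 with the Y-linked level added to it; DESeq2 with that level called 81. Leaving out each library gave 0 to 4 by limma and 30 to 189 by DESeq2.

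In the Ring1a/b 2KO, limma called 6 genes and 0 members. It called 10 genes with no filter, 3 at a threshold of 0.01, and 0 in 1 fit over all 10 libraries with or without the Y-linked level. edgeR called 0 genes. The authors' deposited values and DESeq2 called 231 genes and 4 members. Leaving out each library gave 0 to 565 genes and 0 to 2 members by limma, and 39 to 679 genes and 0 to 3 members by DESeq2. The causes of these differences between tools were not tested.

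The Krt24 Eed KO log2 fold change, 0.0090 by limma, was -0.10 after quantile normalization, -0.070 after centring, -0.030 in the authors' deposited values and by DESeq2, -0.024 by edgeR, and -0.36 with the Y-linked level as a term by limma and by DESeq2. Without each library it ranged from -0.29 to 0.42 by limma and from -0.37 to 0.50 by DESeq2. With the Y-linked level in 1 fit, the Ring1a/b 2KO value of Lhx2 was -0.084, and the Eed minus Ring1a/b difference was 1.03 for Lhx2 and 0.010 for Lgr5; by edgeR that of Lhx2 was 0.029. Without each library, Nfatc1 ranged from -0.36 to 0.11 (DESeq2 -0.38 to 0.092) in the Eed KO and from -0.35 to 0.072 (DESeq2 -0.36 to 0.076) in the Ring1a/b 2KO, and Sox9 from -0.077 to 0.98 (DESeq2 -0.084 to 0.99) in the Ring1a/b 2KO. The differences ranged from -0.82 to 0.50 for Lhx2, -0.32 to 0.74 for Sox9, -0.22 to 0.24 for Nfatc1 and -0.25 to 0.22 for Gas1. Without Eed KO 1 the Eed KO log2 fold change by limma was 0.72 for Cd34, 0.80 for Lhx2 and 0.78 for Lgr5, and without Eed control 3 it was 1.98, 2.04 and 1.45 for these genes.

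Replicate numbers are shared between groups. Same-numbered Eed libraries also share a letter in the deposited column names, and in the Ring1 table both libraries numbered 2 are the shallower ones, but the labels do not say what number or letter mark. Deviations of same-numbered Eed libraries correlated at -0.195, 0.164 and 0.311, beside -0.363 to 0.207 for Eed libraries of unlike number. With 2 libraries a group, the same-numbered Ring1 pairs must share 1 value, here 0.229, and unlike numbers its negative. The Ring1 value therefore cannot decide whether the numbers mark pairs. Since the labels do not say so, the numbers were not taken as pairs. With the replicate block, limma called 1 gene in the Eed KO and 36 in the Ring1a/b 2KO, and 0 members; edgeR with the block called 1 and 57 genes, and 1 member, Krt24 (adjusted p = 0.0406).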
